A study of Homo sapiens with 24 samples.

Results

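The DNA replication and S phase genes are 51 genes whose products copy the genome, supply its building blocks or assemble chromatin on the new strands. They were chosen by symbol, as members of a list of replication genes. All 51 were measured, among 17448 genes tested in all, and 50 of them had a single probe set. For every gene the probe set with the highest mean over the 24 arrays was used.

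In replication, an origin is licensed in G1 when ORC, CDC6 and CDT1 load the MCM2-7 helicase onto DNA. At the start of S phase MCM10, CDC45 and the GINS complex turn that helicase on, and polymerases alpha, delta and epsilon copy the strands with the sliding clamp PCNA. Genes for many of these proteins are known targets of E2F transcription factors. Their transcripts are therefore abundant in cycling cells and scarce in cells that have left the cycle. In the bulk cultures measured here, fewer cells in S phase and less RNA per cell in S phase cannot be told apart.

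The cells were SW1222, an established human colorectal cancer line. The series asked how DPPA3, a gene of early germ cells, acts in this line, and it held 24 arrays in 9 groups. In the induction experiment a line with doxycycline-inducible DPPA3 and its control line grew in 3D, as megacolonies embedded in Matrigel, both with 5 µg/ml doxycycline for 5 days, or in 2D, both with the same dose for 4 hours, on 3 arrays per line and culture. In the shRNA experiment a DPPA3 shRNA line, labelled as a knockdown, and a control shRNA line were grown in 3D on 3 arrays each, and in the CRISPR experiment the clones C66 and C75, labelled as DPPA3 knockouts, and a line with a scrambled guide RNA were grown in 3D on 2 arrays each. All cultures were kept at 21% oxygen.

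These groups limit what the comparisons can carry. The control line of the induction experiment also received the drug, and no arrays of the induced line without the drug were analysed here, so a response to DPPA3 and a standing difference between the lines cannot be told apart. Between 3D and 2D the time under the drug differed along with the culture. C66 and C75 are each a single clone. The labels do not say that replicate arrays came from separate cultures, and a p-value here measures no more than the spread among the arrays, which may be technical.

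DPPA3 itself checked the labels. Its log2 signal was 3.77, 4.54 and 4.74 on the induced 3D arrays, against 2.99, 2.59 and 2.97 on the control 3D arrays, which is 1.50 higher with induction (adjusted p = 0.00251). In 2D the induced line was 1.84 higher on the log2 scale (adjusted p = 4.75e-04). The difference was -0.04 for the shRNA, -0.16 in C66 and 0.19 in C75, and none of these passed the test. At these dim signals the arrays did not show the loss of DPPA3 that the labels give. All 10 markers of colorectal epithelium lay above the array median on every array, while 7 of 8 fibroblast, 5 of 6 leukocyte and all 3 measured endothelial markers lay below it on every array.

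Signals are given as log2 values, so a difference of 1 is a doubling, and a fold change compares one gene between groups. A level is set against other probe sets in no finer way than as above or below the array median. Of the 51 genes, 41 lay above the array median on all 24 arrays, whereas POLE2 and POLD1 lay above it on 0 arrays. One limma model of all arrays was used, and a gene passed where its p, adjusted by Benjamini-Hochberg over the 17448 genes, was under 0.05. The median standard error of a log2 fold change over the 51 genes was 0.127 with 3 arrays per group and 0.156 with 2.

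The promoters of these genes were searched for motif letters, which were not used to choose the members. Many of the genes were already known as E2F targets, so their share of E2F words is not an independent finding. RefSeq promoter sequences (GRCh38.p14, 250 bases before to 50 after a start) were at hand for 43 of the 51 genes, as 54 promoters. The E2F letters TTTCGCGC, TTTGGCGC, TTTCCCGC or TTTGCCGC, searched on both strands, stood in 24 of the 54 promoters (44.4%), against 1164 of 35116 promoters in the whole table (3.32%). The CCAAT box letters stood in 59.3% of the 54 promoters, against 34.6% of all promoters. The letters TTTGAA or TTCGAA of the CHR element, found in many G2 and mitosis promoters, stood in 5.56%, against 16.4%. A match is a description of letters and not a site shown to be bound. No word of one motif can be spelled inside a word of another, but words on opposite strands can overlap.

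The stretches below were chosen to show the E2F words in genes that behaved differently in the arrays. MCM7, TIPIN and POLE fell with induction in 3D, MCM6 holds the most E2F words of the 54 promoters and fell in 3D over 2D in both lines, and TYMS and DTL had values above 0 with induction. Each is read 5′ to 3′ on the strand of its gene, and the capitals mark E2F words, read on either strand.
MCM7, chr7:100101398-100101477, minus strand: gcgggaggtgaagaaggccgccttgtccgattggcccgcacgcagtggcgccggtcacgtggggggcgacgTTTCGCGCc
TIPIN, chr15:66356720-66356799, minus strand: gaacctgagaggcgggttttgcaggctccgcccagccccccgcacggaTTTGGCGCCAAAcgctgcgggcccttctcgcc
POLE, chr12:132687343-132687422, minus strand: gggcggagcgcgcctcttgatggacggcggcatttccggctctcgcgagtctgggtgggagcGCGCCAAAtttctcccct
MCM6, chr2:135876502-135876600, minus strand: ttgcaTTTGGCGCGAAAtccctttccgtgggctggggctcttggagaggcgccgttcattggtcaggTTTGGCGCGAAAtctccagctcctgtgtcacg
TYMS, chr18:657562-657641, plus strand: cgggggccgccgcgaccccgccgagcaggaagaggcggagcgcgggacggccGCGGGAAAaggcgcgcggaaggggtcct
DTL, chr1:212035668-212035747, plus strand: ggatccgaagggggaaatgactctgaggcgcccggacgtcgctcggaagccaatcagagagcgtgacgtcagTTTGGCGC
In MCM6 and TIPIN the capitals cover words on both strands that overlap. The MCM7 promoter shown in part also held an E2F word at position -187 from the start, outside the printed stretch. The other promoters searched for MCM7 and TIPIN held 0 E2F words. E2F words stood in 11 of the 18 genes with a promoter sequence that fell with induction in 3D (61.1%) and in 13 of the 25 others (52.0%). The CCAAT letters stood in 14 of the 18 (77.8%) and 12 of the 25 (48.0%), and the CHR letters in 0 and 3. None of these splits was tested. MCM10 and NASP, which had some of the largest falls, had none of the E2F words in their windows.

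With DPPA3 induced, the 3D cultures carried lower signals of genes for most steps of replication. In 3D over the control line, 22 of the 51 genes fell and 0 rose, and the largest fall was that of MCM10, to 0.441 of the control level. Falls reached the licensing factors, the helicase activators, the polymerases and the chromatin assembly factors. The enzymes of nucleotide supply, the clamp with its loaders and the G1/S regulators had no member that passed the test. Of the 5 clamp and loader genes, 3 were lower at an unadjusted p under 0.05 by limma. At that level 2 of 4 nucleotide supply genes were lower and 1 higher, and 1 of 3 G1/S regulators was lower. Over all genes tested, 2.77% were called lower and 2.93% higher in this comparison, and the corresponding share of the 51 genes called lower was 43.1%. At an unadjusted p under 0.05, limma gave 37 of the 51 genes lower and 2 higher, beside 8.14% and 7.86% of all genes.

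The median log2 fold change of the 51 genes was -0.39, beside -0.01 over all genes tested, and 46 of 51 values lay below 0, beside 52.6% of all genes. For 29 of the 51 genes all 3 induced arrays lay below all 3 control arrays, a pattern shown by 9.57% of all genes.

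**Figure D1:**
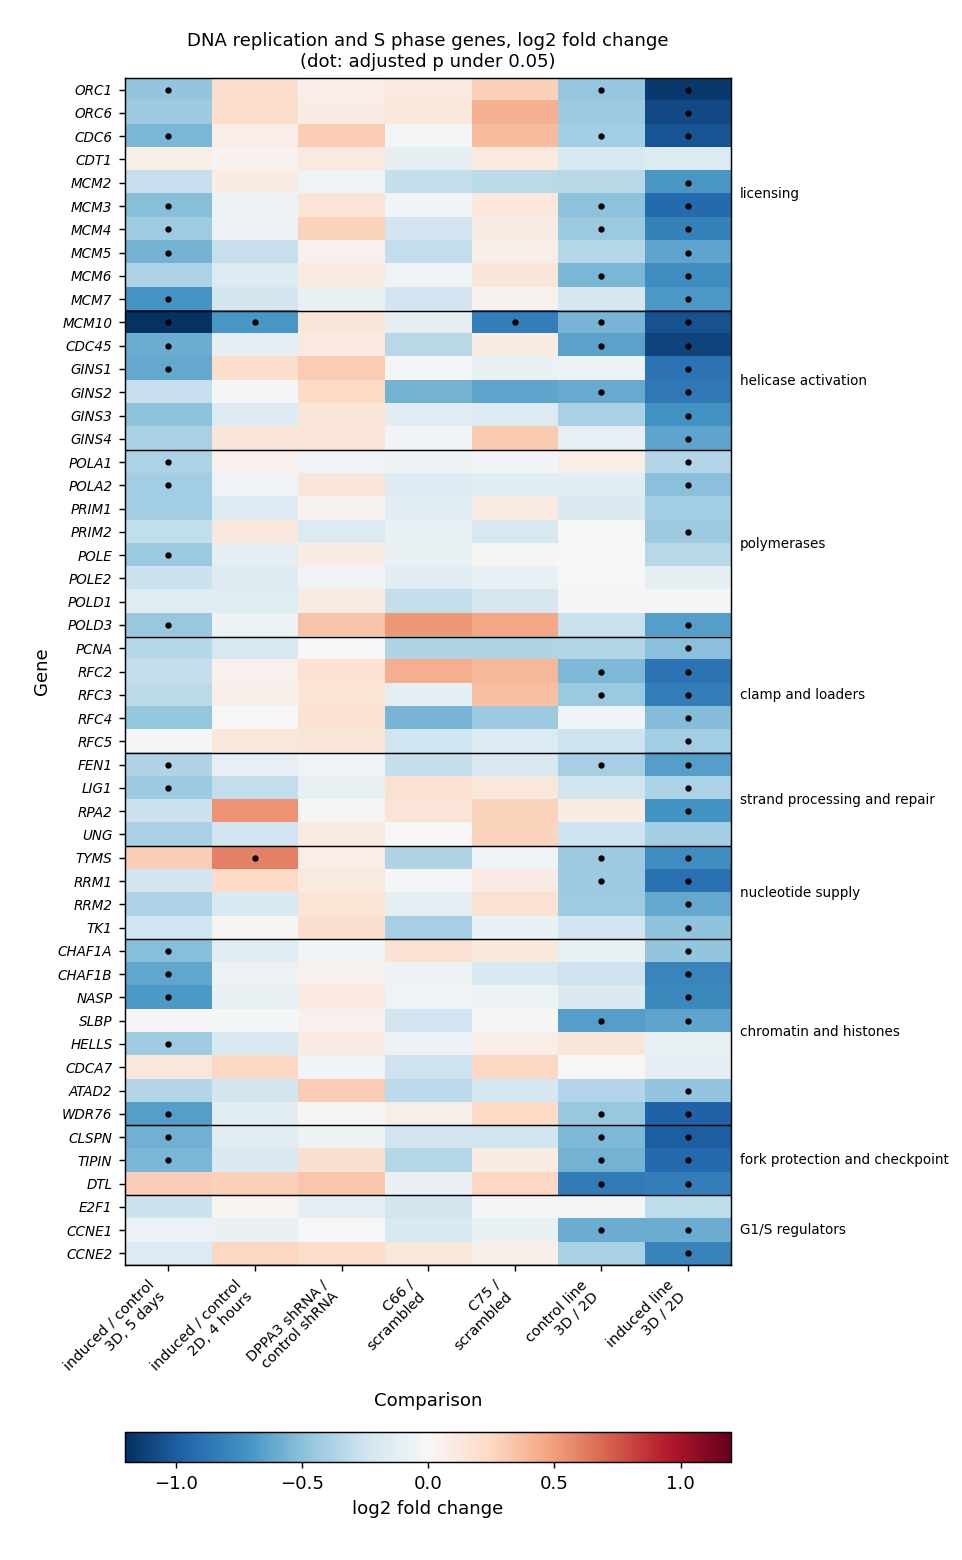
Log2 fold change of each of the 51 genes (rows, ordered by role) in 7 comparisons (columns), in blue for lower and red for higher in the first-named group, with a dot at an adjusted p under 0.05. Dots fill 22 rows for induction in 3D, 2 in 2D, 0 for the shRNA, 0 in C66, 1 in C75, 19 for 3D over 2D in the control line and 42 in the induced line.

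Among the licensing genes, 6 of 10 fell in the induced 3D cultures. MCM7, a subunit of the MCM2-7 helicase, had log2 signals of 6.76, 6.76 and 6.57 on the induced arrays, against 7.54, 7.49 and 7.20 on the control arrays. The groups did not overlap, and the log2 fold change was -0.71 ± 0.10 (SE, n = 3 per group, limma adjusted p = 6.00e-05). The helicase subunits MCM5, MCM3 and MCM4 fell by 0.57, 0.51 and 0.42 on the log2 scale. CDC6, which helps ORC to load the helicase, fell by 0.54, and ORC1, the largest subunit of the origin recognition complex, fell by 0.48. MCM2, another helicase subunit, had 5.35, 5.36 and 5.35 on the induced arrays and 5.80, 5.57 and 5.51 on the control arrays. Its arrays did not overlap, yet its log2 fold change of -0.27 did not pass (adjusted p = 0.321). CDT1, the partner of CDC6 in loading, had a log2 fold change of 0.07.

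Of the 6 helicase activation genes, 3 fell. MCM10, which helps the loaded helicase start to unwind DNA, had log2 signals of 4.34, 4.32 and 4.29 on the induced arrays, against 5.57, 5.42 and 5.50 on the control arrays. Its log2 fold change was -1.18 ± 0.14 (SE, n = 3 per group, limma adjusted p = 5.11e-06), and no other of the 51 genes fell as far. GINS1, a subunit of the GINS complex, fell by 0.61 (adjusted p = 0.00178), and CDC45, which with GINS completes the active helicase, fell by 0.59 (adjusted p = 0.00142).

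MCM10 lies among genes that shifted the same way. All 20 of its nearest genes in RefSeq order, taken among genes above the median level, had log2 fold changes below 0 in 3D, with a median of -0.45 and a range of -0.91 to -0.03, and 12 of them passed the test. None of the 20 was as low as MCM10 in 3D. A shift shared by a stretch of the genome and the part of it that belongs to MCM10 alone were not separated. Among the other members, DTL lay beside neighbours with a median of 0.43 and CCNE1 beside neighbours with a median of -0.17 in the same comparison. No other member had neighbours with a median over 0.15 in size there.

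**Figure D2:**
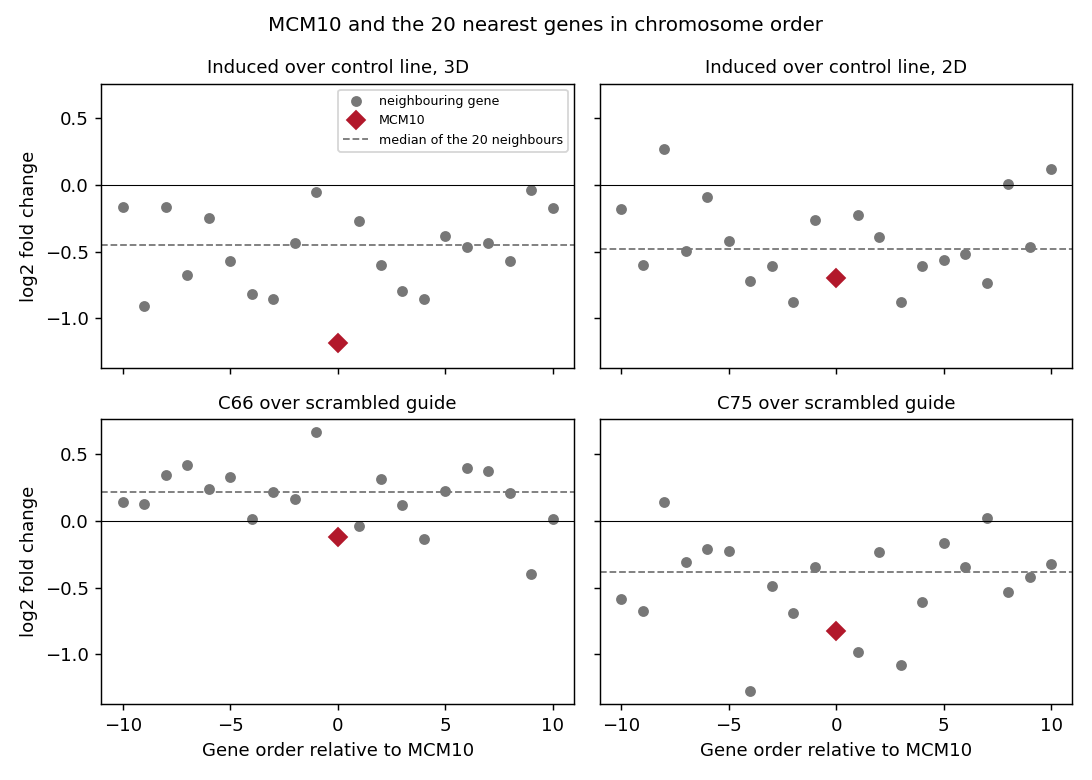
Log2 fold change (y axis) of MCM10 (diamond) and of its 20 nearest genes (points) by gene order among genes above the median level (x axis), for induction in 3D and 2D and for C66 and C75 over the scrambled guide, with a dashed line at the median of the neighbours. With induction in 3D all 20 neighbours lie below 0 and above MCM10.

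Of the 8 polymerase genes, 4 fell, namely POLA1 and POLA2 of polymerase alpha, which starts each strand with primase, the catalytic subunit POLE of the leading strand polymerase and the polymerase delta subunit POLD3. Their log2 fold changes were -0.38, -0.42, -0.45 and -0.45. The clamp genes did not pass. PCNA had log2 signals of 6.001, 6.36 and 5.93 on the induced arrays, against 6.35, 6.24 and 6.72 on the control arrays. These overlapped, with a log2 fold change of -0.34 (adjusted p = 0.168). Of the strand processing genes, the flap nuclease FEN1 and the ligase LIG1, which join Okazaki fragments, fell by 0.36 and 0.43.

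Chromatin genes held 5 falls among 8 members. NASP, a histone chaperone, had log2 signals of 7.14, 7.48 and 7.01 on the induced arrays, against 7.95, 7.92 and 7.84 on the control arrays. The groups did not overlap and NASP fell by 0.69 (adjusted p = 1.47e-04). WDR76 had 5.74, 5.73 and 5.74 on the induced arrays and 6.44, 6.56 and 6.18 on the control arrays, again without overlap, and fell by 0.66 (adjusted p = 6.97e-04). CHAF1B and CHAF1A, subunits of the chromatin assembly factor CAF-1 that places histones behind the fork, fell by 0.62 and 0.51, and the chromatin remodeler HELLS fell by 0.43. SLBP, which binds histone mRNA, had a log2 fold change of 0.01.

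CLSPN and TIPIN, which steady the fork and pass on its checkpoint signal, fell by 0.57 and 0.54. CLSPN had a second, dimmer probe set with a log2 fold change of -0.20. DTL, which directs the destruction of CDT1 in S phase, had 6.58, 6.48 and 6.28 on the induced arrays, against 6.23, 6.26 and 5.95 on the control arrays, a log2 fold change of 0.30 that did not pass (adjusted p = 0.232). TYMS, thymidylate synthase, had 7.59, 7.88 and 7.59 on the induced arrays, against 7.42, 7.28 and 7.48 on the control arrays, a log2 fold change of 0.29 that did not pass (adjusted p = 0.124). These were the only genes of the 51 whose induced 3D arrays all lay above the control arrays. E2F1, a transcription factor that drives S phase genes, had a log2 difference of -0.26 that did not pass (adjusted p = 0.242), and the cyclins CCNE1 and CCNE2 had -0.07 and -0.17.

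**Figure D3:**
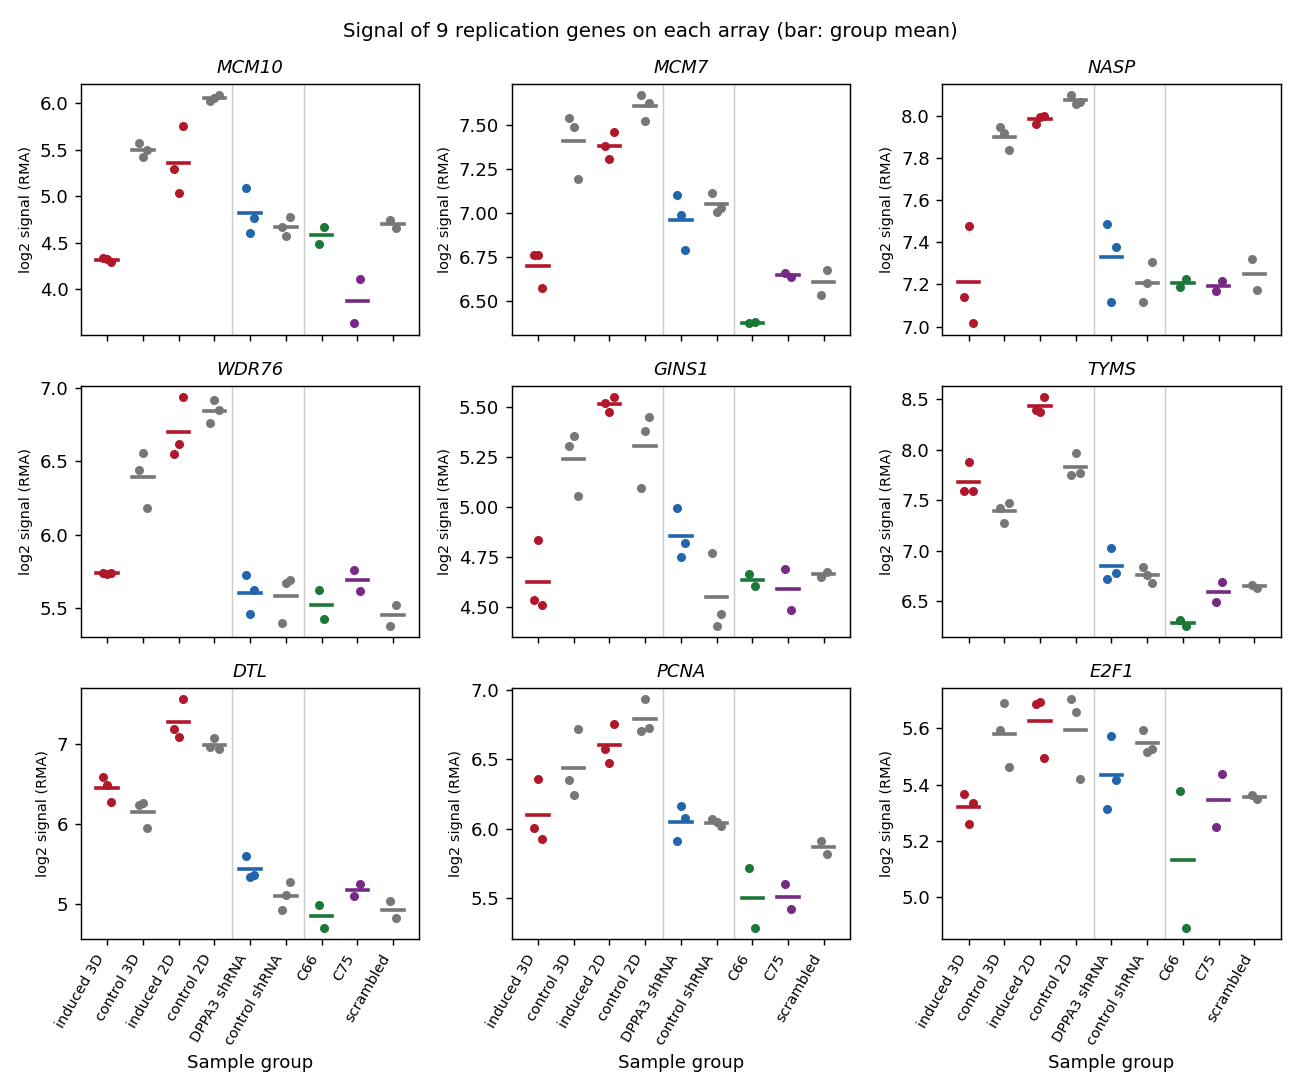
Log2 signal (y axis) of 9 replication genes on each array (points), by group (x axis), with a bar at each group mean. MCM10, MCM7, NASP and WDR76 lie lower on all 3 induced 3D arrays than on all 3 control 3D arrays.

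Other genes of the cell cycle fell beside them. Among 45 other replication genes 7 fell and 0 rose in 3D, with a median of -0.26. They included the helicase gene BLM (-1.12), the maintenance methyltransferase gene DNMT1 (-0.57) and the checkpoint kinase gene CHEK1 (-0.55). Among 53 G2 and mitosis genes 27 fell and 0 rose, with a median of -0.40, including GTSE1 (-0.95), the ubiquitin-conjugating enzyme gene UBE2C (-0.54) and the kinesin gene KIF23 (-0.64). The proliferation marker MKI67, counted among them, fell by 0.56 (adjusted p = 9.95e-04). Of 31 E2F and G1/S regulators 0 fell and 0 rose by limma, with a median of -0.02, and at an unadjusted p under 0.05 there were 4 lower and 1 higher.

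The epithelial marker levels summed to between 87.2 and 88.8 on the induced 3D arrays and between 84.3 and 87.1 on the control 3D arrays, and their part in these falls was not tested. The count of 22 dropped to 13 without induced 3D array 1, to 14 without induced 3D array 3, to 14 without control 3D array 1 and to 13 without control 3D array 2, and to 10 when the 6 arrays were fitted alone. The fall of MCM10, MCM7, MCM3, CDC6, CDC45, GINS1, NASP, WDR76 and TIPIN passed under every alternative in which the gene was tested, and MCM10 was left out of the one that drops members beside shifted neighbours.

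The same lines in 2D, 4 hours into the drug, had 2 replication genes that passed. MCM10 fell, TYMS rose, and the other 49 genes did not pass, beside 1.26% of all genes called lower and 1.87% called higher. The median log2 fold change of the 51 genes was -0.06, beside 0.00 over all genes. Of the 51 values 31 lay below 0, beside 48.8% of all genes. At an unadjusted p under 0.05, limma gave 3 genes lower and 4 higher, numbers near the 5.98% and 7.64% of all genes at that level. MCM10 had log2 signals of 5.29, 5.04 and 5.75 on the induced 2D arrays, against 6.02, 6.06 and 6.09 on the control 2D arrays. The third induced array lay nearer the control arrays than the others did, and MCM10 fell by 0.70 ± 0.14 on the log2 scale (SE, n = 3 per group, limma adjusted p = 0.00434). Without induced 2D array 2 that call was lost, leaving 0 genes lower and 2 higher, and when the 6 arrays were fitted alone it was lost too. The median of the 20 neighbours of MCM10 was -0.48 in 2D, and 12 of them passed. Of these 20 neighbours, 4 fell further than MCM10 in 2D.

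TYMS, the enzyme that makes thymidylate and the target of fluorouracil, had log2 signals of 8.39, 8.38 and 8.52 on the induced 2D arrays, against 7.75, 7.96 and 7.76 on the control 2D arrays. The groups did not overlap, and TYMS rose to 1.52 times the control level, a log2 fold change of 0.60 ± 0.11 (SE, n = 3 per group, limma adjusted p = 8.55e-04). That rise passed under every alternative in which the gene was tested. PCNA, MCM2 and E2F1 had log2 fold changes of -0.19, 0.09 and 0.03 in 2D, and MKI67 had -0.05 (adjusted p = 0.901). Beside shifted neighbours lay also DTL (median of neighbours 0.35), RRM1 (0.22) and ORC1 (0.16).

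Among the other lists in 2D, BLM fell by 0.72 as the single one of 45 other replication genes that passed. Of 31 E2F and G1/S regulators, the ubiquitin ligase subunit gene SKP2 (0.59) and the atypical E2F gene E2F8 (0.79) rose and 0 fell, with 1 lower at an unadjusted p under 0.05. Of 53 G2 and mitosis genes, GTSE1 fell by 0.62 and the kinase gene NEK2 rose by 0.70. The neighbours of genes in these lists were not examined, so a shift shared by a stretch of the genome was not separated.

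Whether the induced line differed from its control line by another amount in 3D than in 2D was tested directly as the difference of the log2 fold changes. GINS1 was the single one of the 51 genes that passed, beside 0.138% of all genes called lower and 0.103% called higher. GINS1 had log2 signals of 4.54, 4.84 and 4.51 on the induced 3D arrays, against 5.31, 5.35 and 5.06 on the control 3D arrays, and of 5.52, 5.48 and 5.55 on the induced 2D arrays, against 5.09, 5.38 and 5.45 on the control 2D arrays. The induced arrays lay below the control arrays in 3D and above them in 2D, and the difference was -0.82 ± 0.17 on the log2 scale (SE, limma adjusted p = 0.0320).

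The difference had the same sign for most of the other genes without passing. Its median over the 51 genes was -0.36, beside -0.01 over all genes, with 46 values below 0, beside 52.4% of all genes. At an unadjusted p under 0.05, limma gave 25 genes lower and 0 higher, a level that 5.26% and 3.71% of all genes reached. NASP had -0.60 (adjusted p = 0.119) and CDC6 had -0.63 (adjusted p = 0.138). MCM2, PCNA and E2F1 had -0.36, -0.15 and -0.29. E2F1 and CCNE1 lay beside neighbours with medians of -0.15 and -0.18. With GINS1 the call depended on the arrays used, since it was lost without induced 3D array 1 or 3, control 3D array 1 or 2, any 1 induced 2D array, or control 2D array 1 or 2, and when the 12 arrays were fitted alone. Without induced 3D array 2 the count was 2. Of the other lists, E2F8 (-0.91), the kinase gene AURKA (-0.89) and ANLN (-0.76) passed as lower. Of the 45 other replication genes 0 passed, with 14 lower and 0 higher at an unadjusted p under 0.05.

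Between the lines labelled DPPA3 shRNA and control shRNA, which differed by -0.04 in DPPA3 signal, no replication gene passed the test. Of the 51 genes 0 fell and 0 rose by limma, beside 0.0516% of all genes called lower and 0.0344% called higher, and 0 were lower and 6 higher at an unadjusted p under 0.05, beside 2.72% and 2.53% of all genes. The median log2 fold change was 0.11, beside 0.00 over all genes. Of the 51 values 40 lay above 0, beside 8681 of all 17448 genes. For 8 genes all 3 shRNA arrays lay above all 3 control shRNA arrays, a pattern shown by 5.16% of all genes.

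The smallest p-values belonged to ATAD2, POLD3 and CDC6. ATAD2, a chromatin ATPase, had log2 signals of 5.89, 5.74 and 5.79 on the DPPA3 shRNA arrays, against 5.59, 5.35 and 5.55 on the control shRNA arrays. Its log2 fold change was 0.31, with a 95% interval of 0.08 to 0.54 (adjusted p = 0.722). POLD3 had 6.37, 6.10 and 6.33 on the DPPA3 shRNA arrays, against 5.84, 5.998 and 5.93 on the control shRNA arrays, a log2 fold change of 0.34 (adjusted p = 0.735). CDC6 had 5.80, 5.70 and 5.52 on the DPPA3 shRNA arrays, against 5.42, 5.33 and 5.35 on the control shRNA arrays, a log2 fold change of 0.31 (adjusted p = 0.751). All 3 genes had arrays that did not overlap. MCM2, PCNA, E2F1 and MKI67 had log2 fold changes of -0.05, 0.01, -0.11 and 0.07. None of the other replication, E2F and G1/S or G2 and mitosis genes passed, and at an unadjusted p under 0.05 there were 1 lower and 0 higher, 0 and 0, and 0 lower and 3 higher in these lists.

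**Figure D4:**
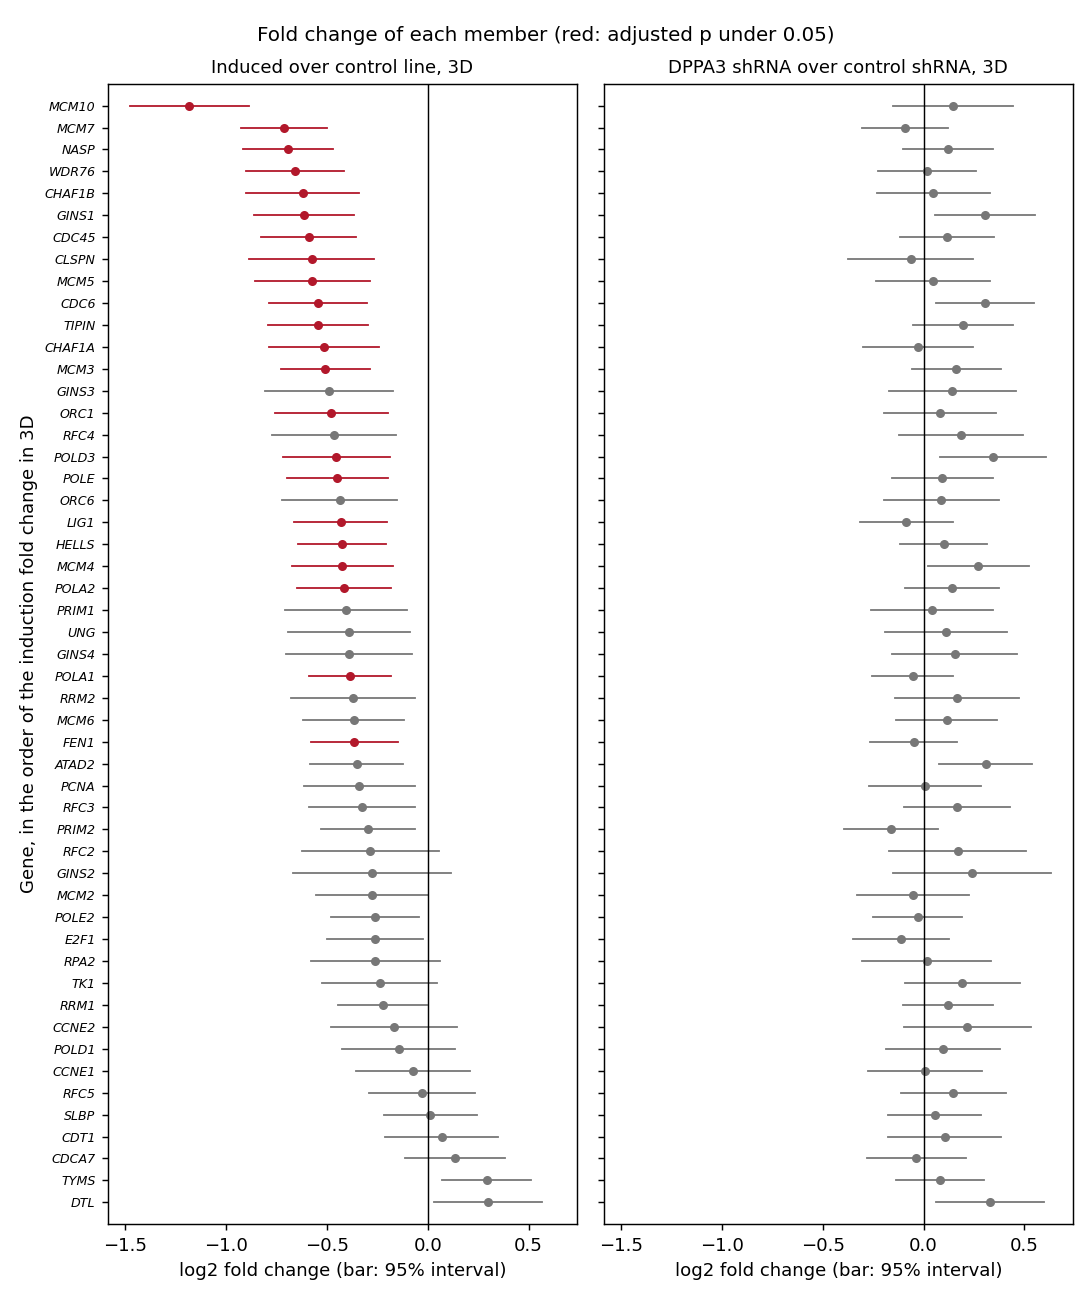
Log2 fold change of each of the 51 genes with its 95% interval, for induction in 3D and for the DPPA3 shRNA, in the same order of genes, with red for an adjusted p under 0.05. The values run from -1.18 to 0.30 with induction and from -0.16 to 0.34 with the shRNA.

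The clones labelled C66 and C75 were compared with the same scrambled guide arrays, so their values share those arrays and are given side by side. In C66 0 of the 51 genes passed by limma, beside 0.562% of all genes called lower and 0.871% called higher, and 9 were lower and 2 higher at an unadjusted p under 0.05, beside 4.67% and 4.88% of all genes. In C75 MCM10 fell and 0 genes rose, beside 0.481% of all genes called lower and 0.138% called higher, and 4 were lower and 4 higher at an unadjusted p under 0.05, beside 4.38% and 3.74% of all genes. The median log2 fold change of the 51 genes was -0.12 in C66 and 0.06 in C75. In C66 both arrays lay below both scrambled arrays for 21 genes, a pattern shown by 22.5% of all genes. There 42 of the 51 values were below 0, beside 52.2% of all genes.

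MCM10 had log2 signals of 3.63 and 4.12 on the C75 arrays, against 4.74 and 4.66 on the scrambled arrays, and fell by 0.83 ± 0.18 on the log2 scale (SE, n = 2 per group, limma adjusted p = 0.0183). On the C66 arrays it had 4.49 and 4.67, and its log2 fold change there was -0.12 (adjusted p = 0.943). Its 20 neighbours had a median of -0.39 in C75, where 6 of them passed, and of 0.21 in C66. Of these 20 neighbours, 3 fell further than MCM10 in C75. The call in C75 was lost without scrambled array 1 or 2 or C75 array 1, and when the arrays of the comparison were fitted alone.

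In C66 the smallest p-values were those of POLD3, RFC4 and TYMS. POLD3 had 6.49 and 6.42 on the C66 arrays and 6.32 and 6.49 on the C75 arrays, against 5.86 and 6.01 on the scrambled arrays. Its log2 fold change did not pass in C66 (0.52, adjusted p = 0.121) or in C75 (0.47, adjusted p = 0.272). RFC4, a subunit of the clamp loader, had 5.50 and 5.44 on the C66 arrays and 5.71 and 5.47 on the C75 arrays, against 5.97 and 6.08 on the scrambled arrays, with a log2 fold change of -0.55 in C66 (adjusted p = 0.182). TYMS had 6.31 and 6.26 on the C66 arrays and 6.49 and 6.69 on the C75 arrays, against 6.66 and 6.64 on the scrambled arrays. Both C66 arrays lay below the scrambled arrays, with a log2 fold change of -0.36 (adjusted p = 0.250), and the C75 arrays overlapped with them, with -0.05. MCM2, PCNA, E2F1 and MKI67 had -0.29, -0.36, -0.22 and 0.06 in C66, and -0.33, -0.36, -0.01 and 0.07 in C75. TIPIN lay beside neighbours with a median of -0.51 in C66, and CDT1 beside neighbours with a median of -0.19 in C75.

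Of the other lists, BLM (-0.81) and the mitotic genes KIF23 (-0.77), CCNB2 (-0.71) and PRC1 (-0.54) fell in C66, and GTSE1 (-0.68) fell in C75. Neighbouring genes were examined only for members, so a shift shared by a stretch of the genome was not separated for these genes. In C75 0 of the 45 other replication genes passed, with 1 lower and 0 higher at an unadjusted p under 0.05, and 0 of the 31 E2F and G1/S regulators passed in either clone, with 2 lower and 1 higher in C66 and 2 lower and 2 higher in C75 at that level.

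Between the clones, with no shared control arrays in the difference, MCM10 was higher in C66 by 0.71 ± 0.18 on the log2 scale (SE, n = 2 per group, limma adjusted p = 0.0228). It was the single one of the 51 genes that passed, beside 0.923% of all genes called lower and 1.98% called higher in C66. All 20 of its neighbours were higher in C66, with a median of 0.72, and 13 of them passed. For 11 of the 20 the difference was larger than that of MCM10. The call was lost without C66 array 1 or 2 or C75 array 1, and when the 4 arrays were fitted alone. CDCA7 (-0.50, adjusted p = 0.0714) and the clamp loader subunit RFC3 (-0.48, adjusted p = 0.121) came next, and 10 genes were lower at an unadjusted p under 0.05, beside 4.53% of all genes. MCM2, PCNA and E2F1 had differences of 0.04, -0.01 and -0.21. TIPIN and CDT1 lay beside neighbours with medians of -0.45 and 0.41. Of the other lists, GTSE1 (0.78) and ECT2 (0.49) were higher in C66, and PRC1 (-0.61), KIF23 (-0.61) and BLM (-0.56) were lower. The neighbours of these genes from the other lists were not examined.

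Replication genes were lower in 3D than in 2D within the control line as well. In the control line in 3D over 2D, 19 of the 51 genes fell and 0 rose, beside 2.88% of all genes called lower and 4.92% called higher, and 29 were lower and 0 higher at an unadjusted p under 0.05, beside 10.4% and 11.7% of all genes. The median log2 fold change was -0.34, beside -0.02 over all genes. This comparison uses the control 3D arrays of the induction comparison, with the opposite sign, so no agreement between them is counted here.

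DTL, which had a value above 0 with induction, had log2 signals of 6.23, 6.26 and 5.95 on the control 3D arrays, against 6.96, 7.07 and 6.94 on the control 2D arrays. It fell by 0.84 ± 0.13 on the log2 scale (SE, n = 3 per group, limma adjusted p = 1.93e-04). SLBP had 6.15, 6.30 and 6.18 on the control 3D arrays, against 6.80, 6.99 and 6.81 on the control 2D arrays, and fell by 0.66 (adjusted p = 4.72e-04). CDC45 had 7.07, 6.99 and 6.64 on the control 3D arrays, against 7.40, 7.59 and 7.63 on the control 2D arrays, and fell by 0.64 (adjusted p = 7.42e-04). In these 3 genes the groups did not overlap. GINS2 fell by 0.61, the cyclin gene CCNE1 by 0.60, TIPIN by 0.57, MCM10 by 0.56 and MCM6 by 0.54.

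The falls in the control line took in all 3 fork protection genes, 5 of 10 licensing genes, 3 of 6 helicase activation genes, 2 of 4 nucleotide supply genes, and 0 of 8 polymerase genes, of which 1 was lower and 0 higher at an unadjusted p under 0.05. MCM2, PCNA, E2F1 and MKI67 had log2 fold changes of -0.33, -0.35, -0.01 and -0.25, which did not pass. Members beside shifted neighbours were CDT1 (median of neighbours 0.16), MCM7 (0.15) and RFC4 (0.19). The count of 19 dropped to 10 without control 3D array 2, to 12 without control 2D array 2, to 9 without control 2D array 3 and to 8 when the 6 arrays were fitted alone.

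Of the other replication genes, RAD51AP1 (-0.53), MCMBP (-0.44) and EXO1 (-0.57) were among 5 that fell, and CASP8AP2 (0.71) rose. Of the E2F and G1/S regulators the cyclin gene CCNA2 (-0.52) and the phosphatase gene CDC25A (-0.48) fell and RBL2 (0.39), a pocket protein gene, rose. Of the G2 and mitosis genes 14 fell, with the smallest p-values for ANP32E (-0.66), AURKA (-0.54) and HJURP (-0.45), and 3 rose, namely CENPE (0.68), KIF20B (0.70) and CENPF (0.43).

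The induced line showed the widest fall between 3D and 2D of the comparisons made. In the induced line 42 of the 51 genes fell and 0 rose, beside 7.35% of all genes called lower and 7.55% called higher. All 51 values were below 0, beside 56.0% of all genes, with a median of -0.66, beside -0.03 over all genes. The difference between this fall and that of the control line is the difference of the induction effects given above, in which GINS1 alone passed. ORC1 had log2 signals of 5.25, 5.59 and 5.21 on the induced 3D arrays, against 6.65, 6.39 and 6.47 on the induced 2D arrays, and fell by 1.15 (adjusted p = 1.81e-06). CDC45 had 6.29, 6.32 and 6.32 on the induced 3D arrays, against 7.43, 7.28 and 7.55 on the induced 2D arrays, and fell by 1.11 (adjusted p = 2.16e-07). ORC6, another subunit of the origin recognition complex, had 6.41, 6.16 and 5.99 on the induced 3D arrays, against 7.15, 7.09 and 7.58 on the induced 2D arrays, and fell by 1.08 (adjusted p = 5.55e-06).

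Next came MCM10 (-1.04), CDC6 (-1.03), CLSPN (-0.99), WDR76 (-0.97) and MCM3 (-0.94). MCM2 fell by 0.69, PCNA by 0.50 and MKI67 by 0.76. The 9 genes that did not pass were CDT1, PRIM1, POLE, POLE2, POLD1, UNG, HELLS, CDCA7 and E2F1, with values from -0.42 to -0.02. Members beside shifted neighbours were PRIM1 (median of neighbours 0.21), RFC3 (0.18), RFC4 (0.25) and WDR76 (0.16). Of the other lists, 21 of 45 other replication genes fell, with the smallest p-values for EXO1 (-1.12), DNMT1 (-0.64) and SSRP1 (-0.87). E2F and G1/S regulators fell in 10 of 31 cases, with the smallest p-values for E2F8 (-0.98), CDC25A (-1.02) and CCNA2 (-0.87). G2 and mitosis genes fell in 41 of 53 cases, with the smallest p-values for AURKA (-1.43), ANLN (-1.04) and ANP32E (-0.89). In each of these lists 0 rose, with 1, 1 and 0 higher at an unadjusted p under 0.05, beside 12.4% of all genes.

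Across the 9 groups, the level of the 51 genes can be put as the median, over the genes, of the log2 signal minus that gene's mean over all 24 arrays. It was -0.09, -0.04 and -0.16 on the induced 3D arrays, against 0.37, 0.33 and 0.18 on the control 3D arrays. In 2D it was 0.48, 0.47 and 0.67 on the induced arrays, against 0.54, 0.59 and 0.57 on the control arrays. The induced arrays lay apart from the control arrays in 3D and overlapped with them in 2D. It was -0.14, -0.21 and -0.27 on the DPPA3 shRNA arrays, against -0.30, -0.32 and -0.38 on the control shRNA arrays. The C66 arrays had -0.46 and -0.47 and the C75 arrays -0.33 and -0.28, whereas the scrambled guide arrays had -0.26 and -0.40. The shRNA and CRISPR arrays, for which no doxycycline dose was recorded, all lay below the control 3D arrays of the induction experiment. The control shRNA, C66, C75 and scrambled guide arrays also lay below all induced 3D arrays, and the DPPA3 shRNA arrays overlapped with these. The differences between experiments were not tested.

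**Figure D5:**
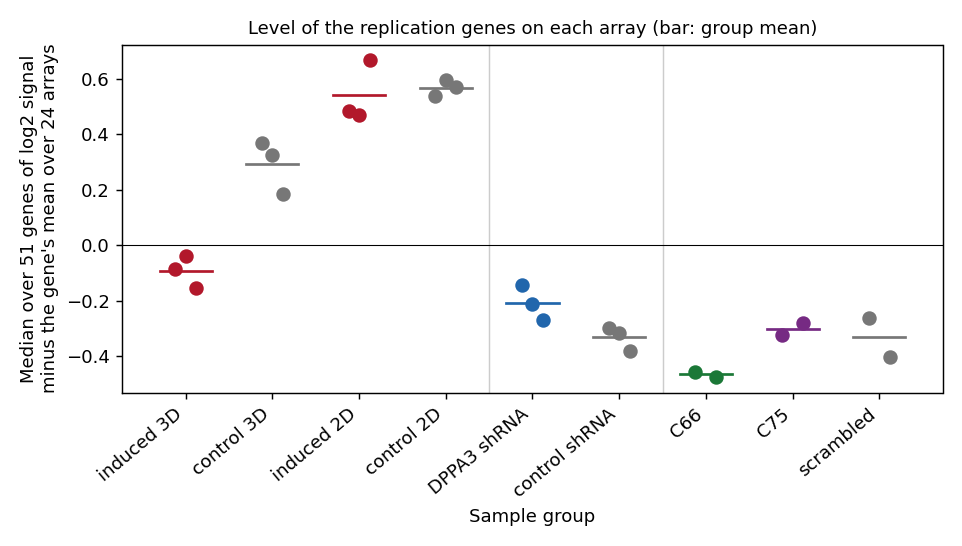
Median over the 51 genes of the log2 signal minus the gene's mean over 24 arrays (y axis), with a point per array, a bar at each group mean and the 9 groups on the x axis. The 3 induced 3D arrays lie between -0.16 and -0.04, below the 3 control 3D arrays at 0.18 to 0.37.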

How the data were processed

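The submitters' processing notes name Partek 6.6 and RMA, with which the authors turned array signals into the log2 values deposited. RMA equalises arrays by quantiles, so a change shared by all genes cannot appear. No genome build was given in the sources used here. Of 20276 probe sets, 18062 carried 1 gene symbol, 1288 several and 926 none in the annotation given, which can be old and was updated through Entrez IDs. Only those with 1 symbol were used. The values ran from 1.56 to 12.5, with array medians of 4.01 to 4.12, and replicate arrays correlated at r = 0.988 to 0.994 across genes. The number of arrays limits the precision.

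Group differences were fitted with limma 3.58.1 in R 4.3.3 (15 residual and 9.81 prior degrees of freedom, 2-sided) with a coefficient per group and no covariate, and the method was tested on simulated data. Members and lists were chosen with earlier results of these data known. In each comparison the 8 largest changes per direction among members that passed were named, or the 3 smallest p-values where none passed. Single-array values were given for the first 4 of these with induction in 3D and the first 3 elsewhere, together with the 3 smallest p-values per direction of each further list and always MKI67, PCNA, E2F1, MCM2 and DPPA3. Members beside shifted neighbours were those whose 20 nearest genes in RefSeq order, among 8722 genes above the median level, had a median log2 fold change over 0.15 in size. Genes of the further lists were not examined in this way. Other members that passed were named to complete the account. Alternatives were a replicate block, array weights, another prior, the mean of probe sets, a filter on dim genes, median centring, separate fits, leaving out members beside shifted neighbours, and leaving out each array.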

Additional observations from a re-analysis of the deposited data

Results flagged for a closer look

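GINS1 differed between cultures in how the induced line compared with its control line. The log2 fold change was -0.61 in 3D and 0.21 in 2D, and the difference of -0.82 passed the limma test of the difference (adjusted p = 0.0320). In 3D all 3 induced arrays lay below the control arrays and in 2D all 3 lay above them.

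MCM10 differed between the clones labelled C66 and C75. Its log2 fold change over the scrambled guide was -0.12 in C66 and -0.83 in C75, and the difference of 0.71 passed the limma test of the difference (adjusted p = 0.0228). Its 20 nearest genes differed between the clones with a median of 0.72.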

How the results depend on the processing

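No result changed direction among those that passed, but many calls lay near the threshold. Of the 22 falls with induction in 3D 9 passed under every alternative in which the gene was tested, of the 19 in the control line in 3D over 2D 6 did, and of the 42 in the induced line 33 did. With the arrays of a comparison fitted alone, which leaves fewer degrees of freedom, the counts of genes lower were 10 with induction in 3D, 0 with induction in 2D, 0 for the difference between 3D and 2D, 0 in C75 and 8 in the control line, and 0 were higher in C66 minus C75. Among genes above the median level, 2 were higher with induction in 2D and 1 was lower in C66 minus C75. Leaving out members beside shifted neighbours removed MCM10, which left 0 lower with induction in 2D, 0 lower in C75 and 0 higher in C66 minus C75. With array weights, 1 was lower and 1 higher in C66, and 3 were lower in C66 minus C75. The causes of the changes with weights and with the filter were not tested.

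Leaving out 1 array at a time gave 13 to 22 lower with induction in 3D, 0 to 1 lower and 1 to 2 higher with induction in 2D, 0 to 2 lower for the difference between 3D and 2D, and 0 to 1 lower in C75. It gave 0 to 1 higher in C66 minus C75 and 9 to 15 lower in the control line. The median of the 51 genes ran from -0.0115 to 0.0545 in C75 and from -0.38 to -0.26 in the control line. Where a clone was left with 1 array, that array was assumed to vary like the other groups.

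Arrays with the same replicate number did not deviate together, with correlations from -0.21 to 0.17, so the numbers were not taken as pairs. With the replicate block 21 genes were lower with induction in 3D, 19 in the control line and 42 in the induced line, and 1 was lower in C66 minus C75. Small changes cannot be resolved with 2 or 3 arrays per group, and less so for genes near the dim end such as POLE2 and POLD1.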
